A study of Mus musculus with 10 samples.

Results

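The glutathione and NRF2 antioxidant genes were followed in mouse epidermis with and without integrin-linked kinase (ILK). Members were chosen by symbol. They are the glutathione S-transferases, glutathione peroxidases, peroxiredoxins, thioredoxin reductases and superoxide dismutases, together with Nqo1, Hmox1, Gclc, Gclm, Srxn1, Gsr, Cat, Nfe2l2 and Keap1. The rule itself uses no measured value, although it was written with earlier results of these data known, and 47 genes of the 19938 that had a probe set with a single symbol met it. Of these, 44 passed the filter on low values, which asked for a linear signal of at least 50 on 5 arrays or more of the 10. Gpx3, Gpx5 and Gsto2 did not and are described without a test.

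RNA came from epidermis of mice aged 3 days, separated from the dermis with dispase, with 1 mouse per GeneChip Mouse Gene 1.0 ST Array. ILK-deficient mice (n = 5) were K14Cre; Ilk f/f, with a heterozygous KRT14-cre transgene and both copies of the floxed Ilktm1Star allele. ILK-expressing controls (n = 5) were K14Cre; Ilk f/+, so that they too carried Cre and a floxed allele, and no mice without Cre were among the arrays. Cre was driven by the keratin 14 promoter, which is active in basal keratinocytes, from which the other keratinocytes of the epidermis descend, so cells of other lineages in the sheet are not targeted by it. Values are log2 signals, and a log2 fold change below 0 means less transcript in ILK-deficient epidermis.

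Array medians lay between 7.07 and 7.17. The probe set of Ilk, which pools its exons, averaged 8.94 ± 0.118 without and 9.17 ± 0.181 with ILK (SD, n = 5 each; log2 fold change -0.23, adjusted p = 0.253), with overlap, so it checks the genotype labels little. The paper reports, from single exons on its arrays, substantially lower signal of exons that Cre removes. It also reports much less ILK protein by immunoblot in epidermis of ILK-deficient mice. The description labels carry a prefix, D, D' or C', whose meaning is not stated. Prefix D marks ILK-deficient replicates 1 to 4 and ILK-expressing replicates 1 to 3, D' marks ILK-deficient replicate 5 and ILK-expressing replicate 4, and C' marks ILK-expressing replicate 5 alone. That array stood apart, with a median correlation with its own genotype of 0.975 against 0.980 to 0.988 for the other arrays. Values within prefix D, 3 ILK-expressing against 4 ILK-deficient arrays, are therefore given beside the results.

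Glutathione is a small thiol built from glutamate, cysteine and glycine, and it is the main soluble reductant of the cell. Peroxidases and transferases spend it on peroxides and on reactive chemicals, and glutathione reductase restores it with NADPH. NRF2, the transcription factor encoded by Nfe2l2, is held down by KEAP1, which hands it to a ubiquitin ligase. When KEAP1 is modified by electrophiles or oxidants, NRF2 escapes, enters the nucleus with a small MAF partner and binds antioxidant response elements in front of many of these genes. In the skin this system is known for protecting keratinocytes from ultraviolet light, oxygen and chemicals.

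Of the 47 members, 40 had a promoter window in the RefSeq table of GRCm38.p6, from 250 bases before to 50 bases after the start site. Gsta4, Gstt2, Gclc, Gsr, Hmox1, Prdx6-ps2 and Sod3 had none there. The core of the antioxidant response element was searched as TGACNNNGC on both strands, where it can share bases with the AP-1 motif TGANTCA. It was found for 9 of the 40 genes (22.5%), against 14.0% of all 27025 genes with a window. Counted over windows, 9 of the 53 member windows (17.0%) and 12.4% of all 32851 windows held it. The 9 genes were Gsta3, Gstm5, Gstm7, Gclm, Nfe2l2, Srxn1, Prdx1, Sod1 and Txnrd1, and in Prdx1 the match overlapped TGANTCA. Printed below are windows of Gpx2, Gsta3 and Sod2, 3 of the members whose genotypes did not overlap, of Gclm and Nfe2l2, whose letters match in front of the modifier subunit and of the factor itself, and of Slc7a11, the cystine transporter described further on. Capitals mark the match to the core on either strand, and the windows of Gpx2, Sod2 and Slc7a11 hold none.
Gpx2 (chr12:76795505-76795804, minus strand): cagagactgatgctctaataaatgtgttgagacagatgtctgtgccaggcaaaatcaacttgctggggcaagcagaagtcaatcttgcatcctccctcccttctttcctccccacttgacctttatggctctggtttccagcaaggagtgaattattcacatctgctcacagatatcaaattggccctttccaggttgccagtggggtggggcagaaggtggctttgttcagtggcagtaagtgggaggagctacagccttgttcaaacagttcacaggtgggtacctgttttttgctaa
Gsta3 (chr1:21240335-21240634, plus strand): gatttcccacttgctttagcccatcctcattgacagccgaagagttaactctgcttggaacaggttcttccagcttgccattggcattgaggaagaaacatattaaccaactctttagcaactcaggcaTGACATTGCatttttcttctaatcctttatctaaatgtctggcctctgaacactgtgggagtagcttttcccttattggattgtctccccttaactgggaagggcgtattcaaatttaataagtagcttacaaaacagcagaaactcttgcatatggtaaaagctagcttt
Sod2 (chr17:13007589-13007888, plus strand): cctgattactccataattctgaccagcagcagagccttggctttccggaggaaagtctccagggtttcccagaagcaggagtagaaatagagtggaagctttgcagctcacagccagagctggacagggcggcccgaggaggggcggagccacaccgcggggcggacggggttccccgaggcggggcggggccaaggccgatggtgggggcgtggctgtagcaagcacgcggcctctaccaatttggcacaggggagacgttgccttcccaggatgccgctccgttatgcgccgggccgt
Gclm (chr3:122245307-122245606, plus strand): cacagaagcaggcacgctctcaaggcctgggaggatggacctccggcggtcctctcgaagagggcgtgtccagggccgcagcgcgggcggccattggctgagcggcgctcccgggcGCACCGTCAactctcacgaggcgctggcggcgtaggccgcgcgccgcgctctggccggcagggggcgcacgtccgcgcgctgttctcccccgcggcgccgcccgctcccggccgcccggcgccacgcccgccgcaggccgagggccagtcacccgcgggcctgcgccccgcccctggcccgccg
Nfe2l2 (chr2:75704614-75704913, minus strand): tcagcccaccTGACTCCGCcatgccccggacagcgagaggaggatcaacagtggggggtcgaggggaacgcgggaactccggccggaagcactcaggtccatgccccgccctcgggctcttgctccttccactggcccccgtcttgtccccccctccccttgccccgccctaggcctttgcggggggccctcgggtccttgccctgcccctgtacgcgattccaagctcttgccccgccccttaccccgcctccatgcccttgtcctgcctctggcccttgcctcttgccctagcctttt
Slc7a11 (chr3:50443564-50443863, minus strand): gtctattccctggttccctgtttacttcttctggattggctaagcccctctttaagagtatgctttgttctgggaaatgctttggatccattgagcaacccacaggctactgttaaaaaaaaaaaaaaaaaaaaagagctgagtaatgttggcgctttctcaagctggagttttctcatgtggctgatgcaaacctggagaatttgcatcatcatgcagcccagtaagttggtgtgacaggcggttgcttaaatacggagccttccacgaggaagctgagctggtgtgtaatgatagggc
The match lies at -121 to -113 from the start site of Gsta3, at -134 to -126 for Gclm and at -240 to -232 for Nfe2l2. A match is a stretch of letters and does not show that the factor binds there. A window without a match does not show that the gene lacks the element, since only this window and this core were searched.

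Among the 44 members tested, 1 fell in ILK-deficient epidermis, Gclc, and 0 rose. Over all 32046 probe sets tested, limma called 3.78%, 0.97% lower and 2.81% higher, so the share of members called lower, 2.27%, rests on a single gene. Among the 19823 probe sets tested with a single symbol, as the members have, 5.57% were called in either direction. The other shares below were taken over all probe sets tested, including those with several symbols or none, so their base is not quite like the members. At an unadjusted p under 0.05, 11 members were lower and 0 were higher, where 5.65% of all probe sets were lower and 10.2% higher. Among the 11 were Gstm1, Gstm2, Gstm3 and Gstm7, near copies whose probes may read more than 1 of them. At the same threshold 8 members were lower and 2 higher within prefix D. With the prefix as a block, 11 were lower and 3 higher. On all 10 arrays, the log2 fold change was below 0 for 30 members and above 0 for 14, where 51% of all probe sets lay above 0. Its median was -0.11, against 0.00311 over all probe sets tested, and within prefix D it was -0.06 against 0.0104. The genotypes did not overlap for 6 members, 13.6% of those tested, against 6.33% of all probe sets. These were Gclc, Gsr, Gpx2, Gsta3, Gstm3 and Sod2, and each was lower in ILK-deficient epidermis, a direction found without overlap for 1.96% of all probe sets, against 4.37% for the opposite direction. Gstm3 was counted by its brighter probe set, and its other probe set showed overlap. The values are from bulk tissue, in which fewer cells of a type and less RNA per cell cannot be told apart.

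**Figure D1:**
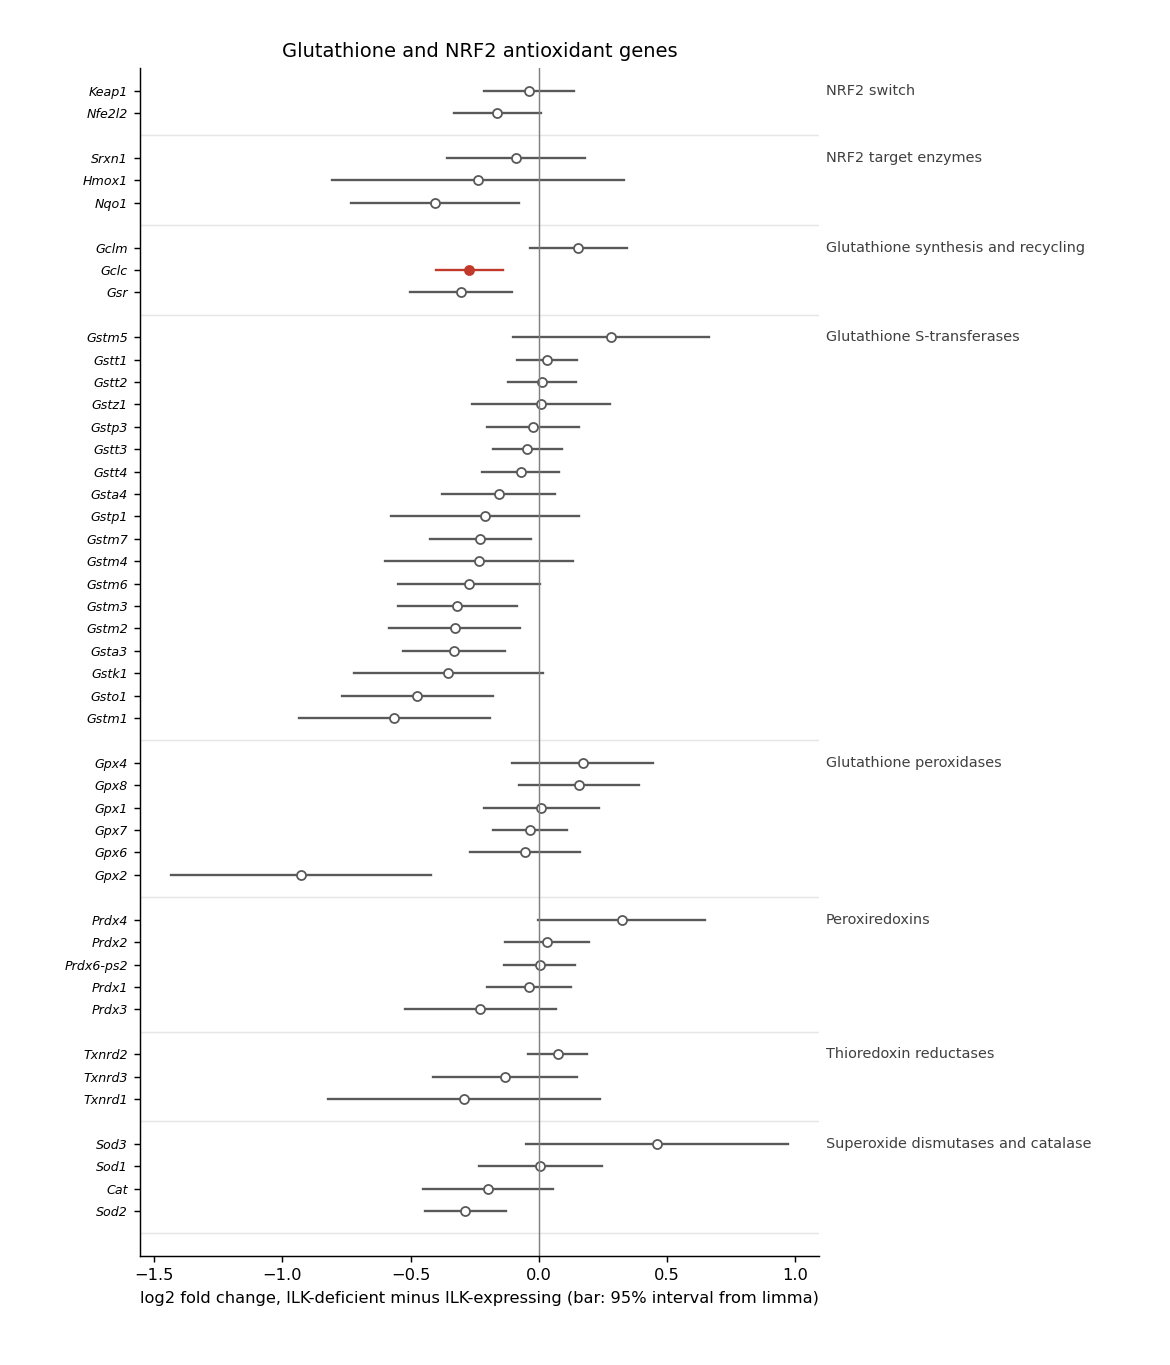
Log2 fold change (ILK-deficient minus ILK-expressing, x axis) of the 44 members tested, by family, with 5 arrays per genotype. Points are limma estimates, bars are their 95% intervals, and the filled red point is Gclc, which passed the test. Most transferases lie left of 0, the peroxiredoxins lie around it, and Gpx2 at -0.93 is farthest to the left.

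Nfe2l2, the gene of NRF2 itself, read 11.34, 11.36, 11.30, 11.19 and 11.14 on the ILK-deficient arrays and 11.47, 11.25, 11.60, 11.48 and 11.35 on the ILK-expressing arrays. Only ILK-expressing replicates 2 and 5 lay within the reach of the ILK-deficient arrays. This gave a log2 fold change of -0.16 (standard error, SE, 0.0773, adjusted p = 0.352, 95% interval -0.33 to 0.01). Keap1, which encodes the sensor that holds NRF2, read 8.75, 9.00, 8.84, 8.93 and 8.81 in ILK-deficient and 8.89, 8.73, 9.06, 8.83 and 9.02 in ILK-expressing epidermis. Its genotypes overlapped throughout, with a log2 fold change of -0.04 (adjusted p = 0.915, interval -0.21 to 0.14).

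The enzymes best known as NRF2 targets shared a pattern among the ILK-expressing arrays. Hmox1, which encodes the heme-degrading heme oxygenase 1, read 9.15, 9.20, 9.07, 8.72 and 9.23 in ILK-deficient epidermis. On the ILK-expressing arrays it read 8.99, 8.77, 8.92, 9.66 and 10.23, so that its D' and C' arrays lay above every other array and the 3 arrays of prefix D lay within the ILK-deficient range. Limma put the difference at -0.24 on the log2 scale (SE 0.258, adjusted p = 0.789, interval -0.81 to 0.33), and within prefix D it was 0.15, of the opposite sign. Txnrd1, the gene of the cytosolic thioredoxin reductase, read 9.27, 9.29, 8.72, 9.24 and 9.38 in ILK-deficient epidermis. Its ILK-expressing values were 9.49, 8.91, 8.96, 9.83 and 10.17, again with the D' and C' arrays highest. Its log2 fold change of -0.29 (adjusted p = 0.680) became 0.01 within prefix D.

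Srxn1, whose product sulfiredoxin repairs over-oxidised peroxiredoxins, read 7.93, 8.00, 7.97, 7.96 and 8.17 in ILK-deficient and 7.81, 7.90, 8.08, 8.17 and 8.51 in ILK-expressing epidermis. The genotypes overlapped, and the C' array was the highest of the 10 (log2 fold change -0.09, adjusted p = 0.852, and 0.04 within prefix D). Nqo1, which encodes a quinone reductase often used as a readout of NRF2, read 6.06, 6.03, 5.89, 6.23 and 5.83 in ILK-deficient epidermis. In ILK-expressing epidermis it read 6.24, 6.08, 6.34, 6.45 and 6.94, and replicate 2 was the only one of these below an ILK-deficient value. Nqo1 thus differed by -0.40 on the log2 scale (SE 0.148, adjusted p = 0.189, exact permutation test p = 0.0159), and it was -0.17 within prefix D. Its signal was dim in both genotypes, not far above the filter at a linear value of 50. For Hmox1, Txnrd1, Nqo1 and Srxn1 alike, the difference between the genotypes thus moved with the label prefix. With the prefix as a block, the log2 fold change was 0.02 for Hmox1, -0.09 for Txnrd1, -0.27 for Nqo1 and 0.03 for Srxn1. What the prefix stands for is not stated, and the cause of the difference between prefixes was not tested.

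**Figure D2:**
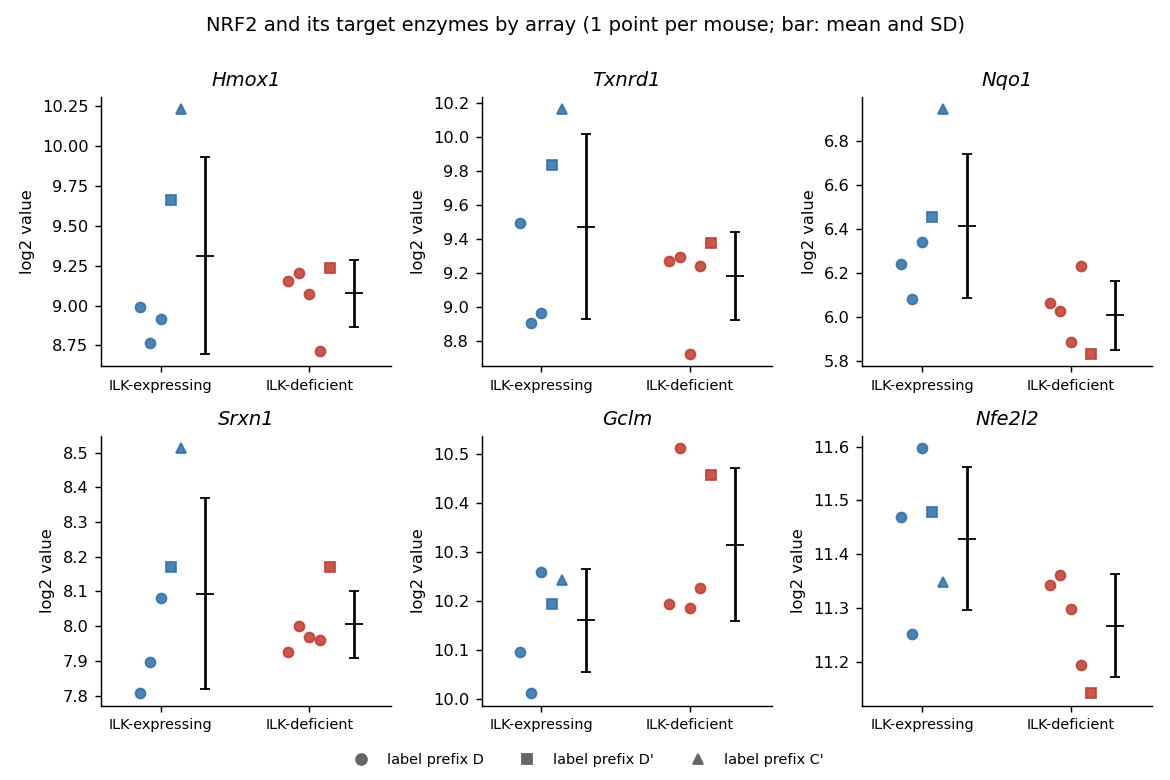
Log2 value (y axis) of Hmox1, Txnrd1, Nqo1, Srxn1, Gclm and Nfe2l2 in each mouse, by genotype (x axis), with the mean and SD of 5 arrays and the symbol showing the label prefix. The square and the triangle of the ILK-expressing genotype, prefixes D' and C', are its highest points for Hmox1, Txnrd1, Nqo1 and Srxn1, but not for Gclm or Nfe2l2.

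Gclc, the catalytic subunit of the ligase that makes the rate-limiting step of glutathione synthesis, fell. It read 9.74, 9.80, 9.70, 9.64 and 9.76 in ILK-deficient and 9.91, 9.90, 10.07, 10.05 and 10.06 in ILK-expressing epidermis. The genotypes did not overlap, and the arrays of each genotype lay close together. The means were 9.73 ± 0.0609 and 10.00 ± 0.0828 (SD, n = 5 each), a log2 fold change of -0.27 (SE 0.0593, adjusted p = 0.0326), or 1.21-fold less. The size held at -0.24 within prefix D (adjusted p = 0.280), and it ranged from -0.29 to -0.24 over 21 alternative settings. The call passed in 8 of those settings only, with adjusted p from 0.0148 to 0.280, and it was lost on leaving out any of the ILK-deficient arrays or ILK-expressing replicate 3, 4 or 5 (adjusted p = 0.0659 without the last).

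Gclm, the modifier subunit that makes the ligase more efficient, stood on the other side of 0 and did not pass. It read 10.19, 10.51, 10.19, 10.23 and 10.46 in ILK-deficient and 10.10, 10.01, 10.26, 10.19 and 10.24 in ILK-expressing epidermis, with overlap. Gclm stood at a log2 fold change of 0.15 (SE 0.0854, adjusted p = 0.451, interval -0.03 to 0.34). Gsr, glutathione reductase, read 10.23, 10.45, 10.30, 10.38 and 10.45 in ILK-deficient and 10.68, 10.52, 10.93, 10.71 and 10.49 in ILK-expressing epidermis. Its genotypes did not overlap, although the highest ILK-deficient and the lowest ILK-expressing array nearly met. Its log2 fold change of -0.30 (SE 0.0903) did not pass after adjustment (adjusted p = 0.104, exact permutation test p = 0.00794, the smallest that 5 arrays against 5 allow), and it was -0.37 within prefix D.

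**Figure D3:**
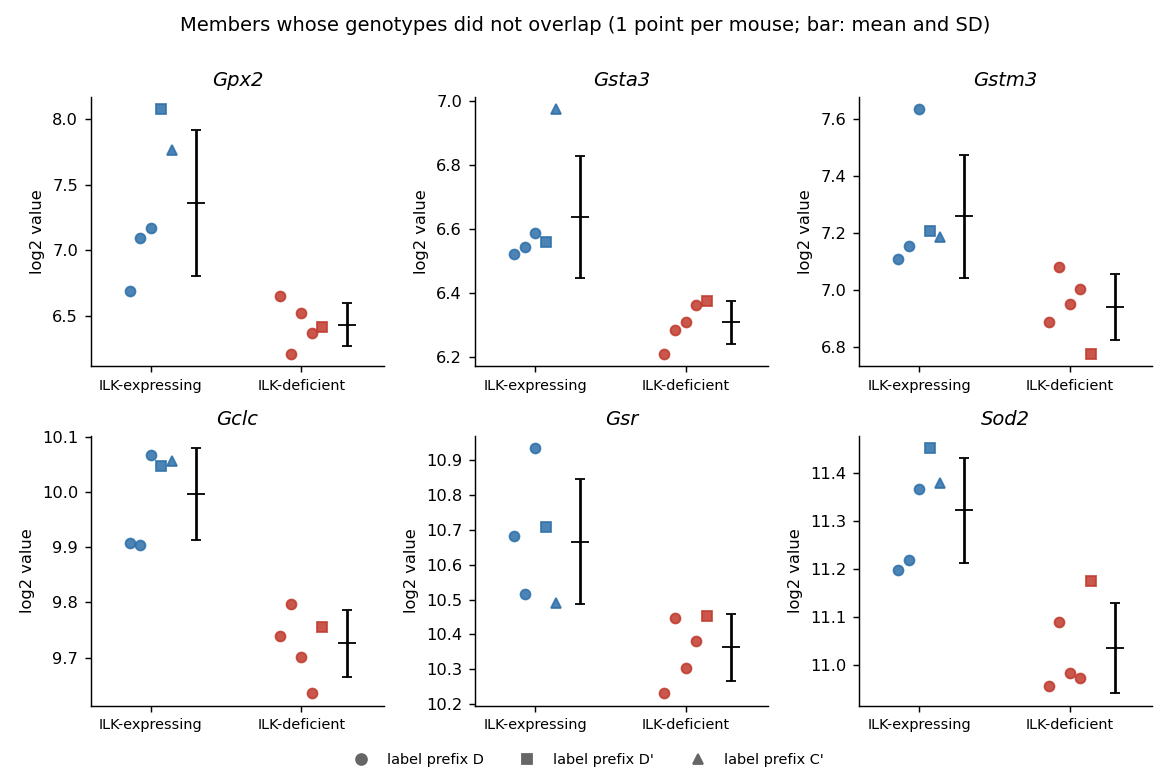
Log2 value (y axis) in each mouse, by genotype (x axis), of the 6 members whose genotypes did not overlap, with the mean and SD of 5 arrays and the symbol showing the label prefix. Each panel has its own scale. In Gclc and Sod2 both genotypes are compact, whereas the ILK-expressing arrays of Gpx2 spread from 6.69 to 8.08.

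The genes that bring in and recycle the building blocks of glutathione are no members but belong to the same pathway. Of 16 tested, 3 fell (18.75%) and 0 rose, against 0.97% lower and 2.81% higher over all probe sets tested. Among probe sets tested with a single symbol, 5.57% were called in either direction. The median log2 fold change of the 16 was -0.21, against 0.00311 over all probe sets tested. Slc7a11 encodes the light chain of the cystine-glutamate exchanger, which supplies the cysteine for glutathione and is also known for its part in pigment synthesis. It read 8.13, 8.01, 8.11, 8.02 and 7.98 in ILK-deficient and 9.00, 9.14, 8.73, 8.92 and 9.50 in ILK-expressing epidermis. Every ILK-expressing array lay well above the ILK-deficient ones, which spanned a narrow range. The log2 fold change was -1.01 (SE 0.123, adjusted p = 0.00304), or 2.01-fold less, it was -0.89 within prefix D, and it passed in all 21 alternative settings. Slc3a2, the gene of the heavy chain that Slc7a11 shares with other amino acid transporters, read from 11.92 to 12.37 in ILK-deficient and from 12.04 to 12.20 in ILK-expressing epidermis, and did not pass (log2 fold change 0.11, adjusted p = 0.632).

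Cbs, which encodes the enzyme that opens the path from homocysteine to cysteine, read 8.30, 8.37, 8.87, 8.66 and 8.35 in ILK-deficient and 9.16, 9.39, 9.97, 9.87 and 9.30 in ILK-expressing epidermis. All ILK-expressing values were the higher ones. Cbs fell by 1.03 on the log2 scale (SE 0.175, adjusted p = 0.0119). Cndp2, whose product splits the cysteinylglycine left from glutathione breakdown, read 8.43, 8.69, 8.45, 8.62 and 8.56 in ILK-deficient and 8.94, 8.87, 9.04, 9.15 and 9.12 in ILK-expressing epidermis. The genotypes were again apart, with a log2 fold change of -0.48 (SE 0.0771, adjusted p = 0.00952). Within prefix D the difference was -0.96 for Cbs (adjusted p = 0.102) and -0.40 for Cndp2 (adjusted p = 0.122), and both passed in 20 of the 21 alternative settings.

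Chac1, which encodes an enzyme that degrades glutathione inside the cell, read 7.31, 7.33, 7.40, 7.28 and 7.25 in ILK-deficient and 7.89, 7.92, 7.74, 8.41 and 9.14 in ILK-expressing epidermis. The genotypes did not overlap, and the D' and C' arrays were the highest. The log2 fold change of -0.91 did not pass (adjusted p = 0.0571), and within prefix D, where the spread was smaller, it was -0.52 (adjusted p = 0.0347). Ggt6, of the family that starts glutathione breakdown outside the cell, had a log2 fold change of -0.24 without overlap (adjusted p = 0.0934). Gss, which adds glycine in the last step of synthesis, stood at 0.19 (adjusted p = 0.274), and Ggct at -0.17 (adjusted p = 0.662).

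**Figure D4:**
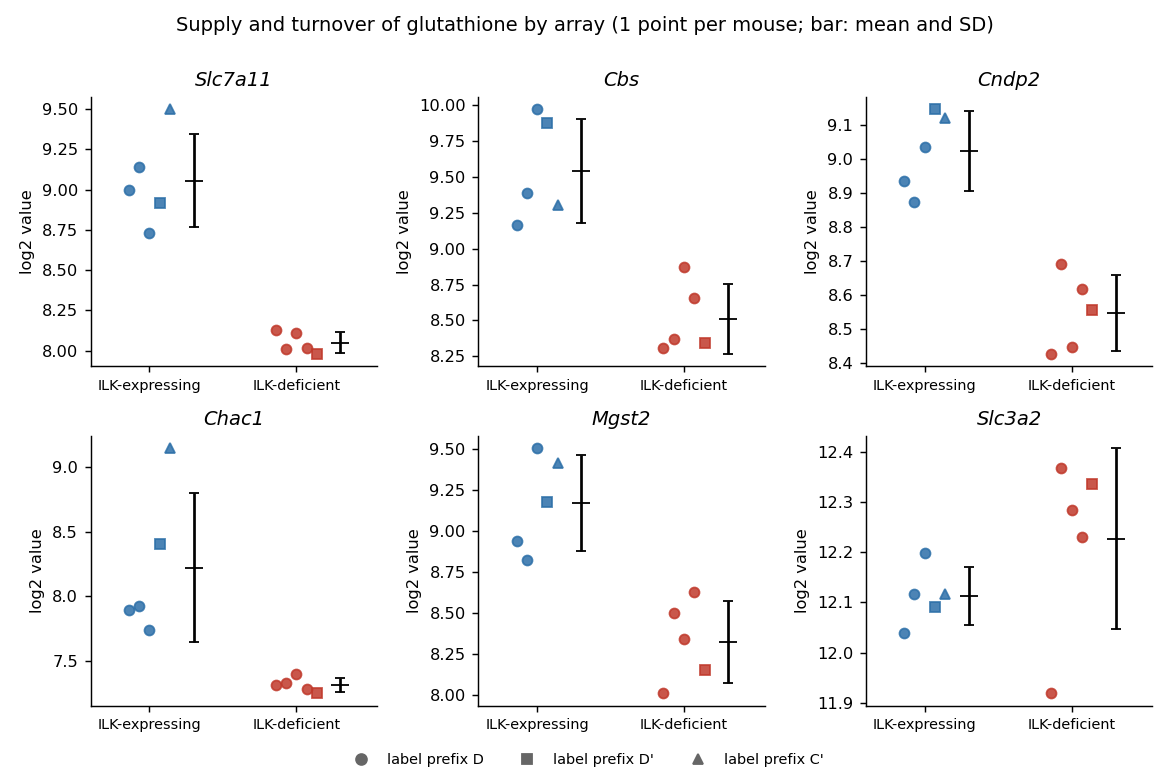
Log2 value (y axis) in each mouse, by genotype (x axis), of Slc7a11, Cbs, Cndp2, Chac1, Mgst2 and Slc3a2, with the mean and SD of 5 arrays and the symbol showing the label prefix. The first 5 show no overlap of the genotypes, with ILK-deficient arrays lower, and Slc3a2 shows overlap.

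Glutathione S-transferases, which couple glutathione to reactive compounds, gave 18 genes tested, of which 14 had a log2 fold change below 0 and 4 above, with a median of -0.22. None passed the adjusted test, and 6 were lower and 0 higher at an unadjusted p under 0.05. Over all probe sets tested, 5.65% were lower and 10.2% higher at that threshold, and 51% had a log2 fold change above 0. Gstm1, Gstm2, Gstm3 and Gstm7 among the 6 are of the mu class and may not be separate readings, as described below. Gsta3, of the alpha class, read 6.21, 6.28, 6.31, 6.36 and 6.37 in ILK-deficient and 6.52, 6.54, 6.59, 6.56 and 6.98 in ILK-expressing epidermis. The genotypes were apart, and the C' array stood above the other 4 of its genotype. The difference was -0.33 on the log2 scale (SE 0.0900, adjusted p = 0.0771), and -0.26 within prefix D, which leaves that array out. Gstm3, of the mu class, read 6.89, 7.08, 6.95, 7.00 and 6.78 in ILK-deficient and 7.11, 7.15, 7.63, 7.21 and 7.19 in ILK-expressing epidermis. The genotypes were just apart (log2 fold change -0.32, adjusted p = 0.140, and -0.32 within prefix D). Its other probe set gave -0.19 (adjusted p = 0.325), with overlap of the genotypes (6.49 to 6.95 in ILK-deficient and 6.84 to 7.08 in ILK-expressing epidermis).

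Gstm1, Gstm2 and Gsto1 were further members of the transferases that were lower at an unadjusted p under 0.05, together with Gstm7. Gstm1 read 8.94 ± 0.202 against 9.50 ± 0.363 (SD, n = 5 each), a log2 fold change of -0.56 (adjusted p = 0.104). Gsto1, of the omega class, read 10.42, 10.64, 11.02, 10.67 and 10.34 in ILK-deficient and 10.96, 10.91, 11.37, 11.08 and 11.14 in ILK-expressing epidermis. Only ILK-deficient replicate 3 reached into the ILK-expressing range (log2 fold change -0.47, adjusted p = 0.0845). Without that array, Gsto1 was the sole member that passed the test.

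Gstp1, the pi-class enzyme, was read through a probe set of its own at 10.94, 11.35, 10.55, 11.22 and 11.02 in ILK-deficient and 11.05, 11.08, 11.65, 11.00 and 11.36 in ILK-expressing epidermis. The genotypes overlapped widely (log2 fold change -0.21, adjusted p = 0.661, interval -0.58 to 0.16). The transferases above 0 were Gstm5 at 0.28 (adjusted p = 0.522), Gstt1, Gstt2 and Gstz1, and none of the theta class, Gstt1 to Gstt4, lay beyond -0.07 to 0.03. Mu-class genes are near copies of each other, and probes on these arrays may read more than 1 of them. The alpha-class genes Gsta1 and Gsta2 have no probe set of their own here and are no members. Gsto2, which did not pass the filter, read 5.61 ± 0.0854 against 5.58 ± 0.0449 (SD, n = 5 each).

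Of the glutathione peroxidases, which reduce peroxides at the cost of glutathione, 6 were tested and none passed. Gpx2, the form known from gut epithelium and a target of NRF2, had the log2 fold change of largest size among the 44 members. It read 6.65, 6.21, 6.53, 6.37 and 6.41 in ILK-deficient and 6.69, 7.10, 7.17, 8.08 and 7.77 in ILK-expressing epidermis. The genotypes did not overlap, but ILK-expressing replicate 1 lay just above the highest ILK-deficient array, and the D' and C' arrays lay above the rest. Its log2 fold change was -0.93 (SE 0.229, adjusted p = 0.0530), or 1.90-fold less, and it was -0.55 within prefix D (adjusted p = 0.176). Over the 21 alternative settings it stayed below 0 and passed in 3, among them that without ILK-expressing replicate 1 (adjusted p = 0.0227).

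Gpx1, the widely expressed cytosolic form, read 11.60, 11.79, 11.64, 11.71 and 11.69 in ILK-deficient and 11.54, 11.55, 12.06, 11.56 and 11.67 in ILK-expressing epidermis. Apart from ILK-expressing replicate 3, the arrays lay together (log2 fold change 0.01, adjusted p = 0.987, interval -0.21 to 0.23). Gpx4, which protects membrane lipids from peroxidation, read 8.86, 9.37, 9.14, 9.46 and 9.14 in ILK-deficient and 8.78, 8.88, 9.13, 9.10 and 9.24 in ILK-expressing epidermis. Its genotypes overlapped, and both of its probe sets gave a log2 fold change of 0.17 (adjusted p = 0.622 for the brighter). Gpx3, the secreted form, was below the filter at 5.26, 5.27, 5.23, 5.29 and 5.15 in ILK-deficient and 5.08, 5.28, 5.15, 5.22 and 5.29 in ILK-expressing epidermis. Gpx5 was below it too (5.61 against 5.64), and Gpx6, Gpx7 and Gpx8 had log2 fold changes of -0.05, -0.04 and 0.16.

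Peroxiredoxins, thiol peroxidases that thioredoxin restores, gave 5 genes tested, 2 below 0 and 3 above, with a median log2 fold change of 0.00373 and none past the test. Prdx1 read 12.03, 12.29, 12.07, 12.30 and 12.21 in ILK-deficient and 12.22, 12.06, 12.28, 12.26 and 12.28 in ILK-expressing epidermis. The ranges nearly coincided (log2 fold change -0.04, adjusted p = 0.904, interval -0.20 to 0.12). Prdx2 stood at 0.03 (adjusted p = 0.925), Prdx3, the mitochondrial form, at -0.23 (adjusted p = 0.484), and Prdx4, of the endoplasmic reticulum, at 0.32 (adjusted p = 0.318). Within prefix D, Prdx4 stood at 0.46 (adjusted p = 0.188). It read from 7.32 to 7.78 in ILK-deficient and from 6.93 to 7.22 in ILK-expressing epidermis there. With the prefix as a block it stood at 0.44 (adjusted p = 0.0669). The dimmer probe sets of Prdx1 and Prdx2 gave -0.09 and -0.07 (adjusted p = 0.827 and 0.701), for Prdx2 of the opposite sign. Prdx6 was read through no probe set of a single symbol, and Prdx6-ps2, named as a pseudogene, held that median value. Of the other thioredoxin reductases, Txnrd2, of mitochondria, had a log2 fold change of 0.07 and Txnrd3 of -0.13, neither past the test.

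Superoxide dismutases turn superoxide into hydrogen peroxide, which catalase breaks down. Sod2, the mitochondrial enzyme, read 10.96, 11.09, 10.98, 10.97 and 11.18 in ILK-deficient and 11.20, 11.22, 11.37, 11.45 and 11.38 in ILK-expressing epidermis. The genotypes did not overlap, and ILK-deficient replicate 5 came closest to the other range. Its log2 fold change was -0.29 (SE 0.0712, adjusted p = 0.0530), and -0.26 within prefix D (adjusted p = 0.231), and over the 21 alternative settings it kept its sign and passed in 2. Sod1, the cytosolic enzyme, read 11.61, 11.65, 11.93, 11.93 and 11.97 in ILK-deficient and 11.89, 11.85, 11.92, 11.92 and 11.48 in ILK-expressing epidermis. The C' array was the lowest of the 10, and the log2 fold change was 0.01 (adjusted p = 0.991, interval -0.23 to 0.24).

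Sod3, the secreted enzyme, was the member with the largest log2 fold change above 0. It read 7.88, 7.64, 7.45, 7.25 and 8.17 in ILK-deficient and 7.20, 6.87, 6.95, 7.05 and 8.00 in ILK-expressing epidermis. Without the C' array at 8.00 the genotypes would not overlap. Limma gave a log2 fold change of 0.46 (SE 0.231, adjusted p = 0.382), 0.55 within prefix D (adjusted p = 0.199) and 0.68 with the prefix as a block (adjusted p = 0.0549). Cat, catalase, read 11.83, 11.80, 11.88, 11.48 and 12.17 in ILK-deficient and 12.18, 11.92, 11.90, 12.09 and 12.06 in ILK-expressing epidermis. Only ILK-deficient replicate 5 lay within the ILK-expressing range, and the log2 fold change was -0.20 (adjusted p = 0.479).

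Outside the members, 110 further genes of redox pathways were tested, of which 10 rose (9.09%) and 6 fell (5.45%), with a median log2 fold change of -0.02. Over all probe sets tested, 2.81% were called higher and 0.97% lower, and among those with a single symbol, as these genes have, 5.57% were called in either direction. Among 16 partners and regulators of NRF2, 2 rose and 1 fell. Bach2, a repressor that competes for the same elements and is also known from lymphocytes, read from 9.70 to 10.47 in ILK-deficient and from 8.55 to 9.36 in ILK-expressing epidermis, and rose by 1.09 on the log2 scale (SE 0.171, adjusted p = 0.00832). Btrc, the substrate adaptor of a ubiquitin ligase that also degrades NRF2, rose by 0.38 (adjusted p = 0.0356), and Dpp3, a peptidase that can bind KEAP1, fell by 0.41 (adjusted p = 0.0348). Cul3, the scaffold of the KEAP1 ligase, was at -0.01 (adjusted p = 0.987), and Sqstm1, which can sequester KEAP1, at 0.19 (adjusted p = 0.221).

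Of 19 other genes known as NRF2 targets, 3 rose and 1 fell. Pir, which encodes the iron-binding protein pirin, read from 9.20 to 9.73 in ILK-deficient and from 8.28 to 8.82 in ILK-expressing epidermis (log2 fold change 0.95, SE 0.124, adjusted p = 0.00397). Ftl1, the ferritin light chain, rose by 0.65 (adjusted p = 0.0207) and Akr1b8, an aldo-keto reductase, by 0.42 with overlap of the genotypes (adjusted p = 0.0401). Ptgr1, which encodes a reductase of leukotriene and prostaglandin metabolites, fell by 0.49 (adjusted p = 0.0327). Fth1, the ferritin heavy chain, was at 0.04 (adjusted p = 0.875), and Akr1a1 at 0.12 (adjusted p = 0.271). NRF2 targets that passed the test thus stood on both sides of 0. Pir, Ftl1 and Akr1b8 were higher and Gclc, Slc7a11 and Ptgr1 lower in ILK-deficient epidermis. Among members that did not pass, Nqo1, Hmox1, Srxn1, Txnrd1 and Gpx2 were below 0 and Gclm above. Within prefix D, Hmox1, Srxn1 and Txnrd1 were above 0.

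Of 15 other enzymes that use glutathione, 1 rose and 1 fell. Mgst2, a microsomal transferase, read 8.01, 8.50, 8.34, 8.63 and 8.15 in ILK-deficient and 8.94, 8.82, 9.51, 9.18 and 9.41 in ILK-expressing epidermis. The genotypes were apart, with a log2 fold change of -0.85 (SE 0.156, adjusted p = 0.0168). Clic4, a chloride channel protein with the fold of a transferase, rose by 0.50 (adjusted p = 0.0124). Glrx, glutaredoxin 1, did not pass at -0.52 (adjusted p = 0.0598), although its genotypes did not overlap, and Glrx2 was at -0.09 (adjusted p = 0.736).

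Of 14 thioredoxins and methionine sulfoxide reductases, 1 rose and 0 fell. It was Txnip, whose product binds and inhibits thioredoxin, at 0.84 (SE 0.156, adjusted p = 0.0168), while Txn1, thioredoxin itself, was at -0.03 (adjusted p = 0.887) and Txndc17 at -0.10. None of 8 genes of NADPH supply passed, with Idh1 at 0.02 (adjusted p = 0.965) and Idh2 at 0.26 (adjusted p = 0.118). Of 14 genes of selenoprotein synthesis and selenoproteins, 1 rose, Selenop, a secreted selenium carrier, at 0.70 (SE 0.0972, adjusted p = 0.00537), with Selenot at -0.12 and Selenof at 0.09 not past the test. Of 8 genes whose products make reactive oxygen, 2 rose and 0 fell. These were Cyba at 1.16 (SE 0.177, adjusted p = 0.00751) and Cybb at 0.48 (adjusted p = 0.0391), which encode both chains of the phagocyte cytochrome b558, and Xdh at -0.18 and Duoxa1 at -0.13 did not pass.

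**Figure D5:**
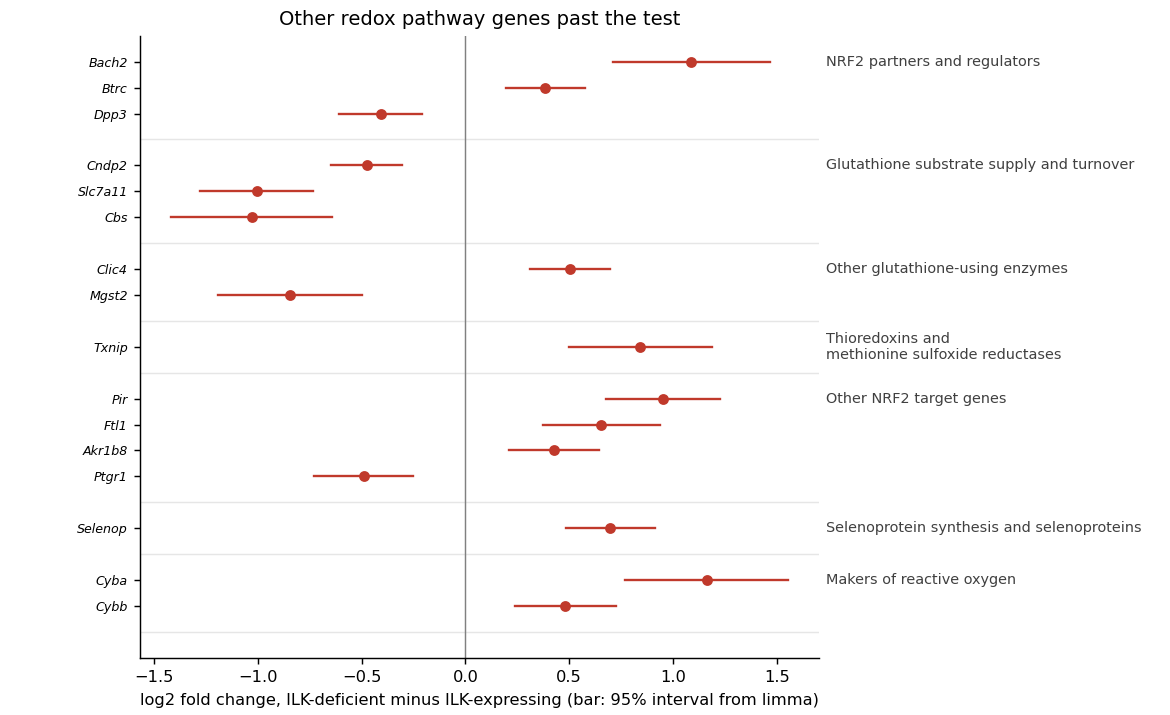
Log2 fold change (ILK-deficient minus ILK-expressing, x axis) of the 16 redox pathway genes outside the members that passed the test, by list, with 5 arrays per genotype. Points are limma estimates and bars are their 95% intervals. Slc7a11 and Cbs lie near -1, and Cyba and Bach2 lie above 1.

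Within prefix D alone, Slc7a11 (-0.89, adjusted p = 0.0156), Pir (0.90, adjusted p = 0.0196), Selenop (0.64, adjusted p = 0.0211), Bach2 (0.95, adjusted p = 0.0329), Cyba (1.13, adjusted p = 0.0339) and Clic4 (0.60, adjusted p = 0.0494) passed. The remaining 10 of the 16 kept their direction there without passing. The first 5 of the genes that passed there also did so in all 21 alternative settings, whereas Btrc, Dpp3, Akr1b8, Ptgr1 and Cybb passed in 7 to 9 of them and Ftl1 in 15.

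Markers of other cell types moved with genotype. Of 13 markers of hair shaft and inner root sheath, 12 fell, and their summed linear level was 1827 to 4557 in ILK-deficient and 15849 to 75688 in ILK-expressing epidermis. Of 9 melanocyte markers, 6 rose, with a summed level of 7427 to 14004 against 2190.5 to 5166. None of 8 sebaceous gland markers passed, but all were below 0, with a median log2 fold change of -0.78 and a summed level of 2736 to 5993 against 4803 to 13011. Of 11 macrophage and leukocyte markers, 2 rose, Lyz2 and Adgre1, with a summed level of 1824 to 2221 against 1560 to 1959. Of 7 markers each, the keratinocyte list had Trp63 higher and Krt14 lower and the list of Langerhans and T cells had Thy1 higher. None of 7 dermal fibroblast markers passed, but all were above 0, with a median log2 fold change of 0.21 and a summed level of 3653 to 6781 against 1596 to 5559. None passed among 5 endothelial, 5 adipocyte, 5 skeletal muscle and 2 erythroid markers. The keratinocyte markers were abundant in both genotypes, with a summed level of 71737 to 77429 against 73761 to 81716. Array values have no true 0, so none of these markers could be called absent. The part of hair, pigment, sebaceous, fibroblast and myeloid cells in the values of Gclc, Slc7a11, Cyba and the other genes above was not tested.

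Members also varied between mice of a genotype. ILK-expressing replicate 3 was the highest array of its genotype for 19 of the 44 members and replicate 5 for 14, while replicate 2 was the lowest for 21. In ILK-deficient epidermis, replicate 2 was the highest for 16 members and replicate 1 the lowest for 16.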

How the data were processed

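The authors hybridised RNA of 1 mouse per array (10 arrays of the type Mouse Gene 1.0 ST) and deposited log2 values that had been adjusted for background, quantile-normalized and summarised by probe set. GC-RMA and RMA both appear in the methods, without saying which made the table, and the submitters' processing notes list Partek and RMA. Genotypes came from the sample labels.

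The deposited log2 values were used unchanged. In the platform annotation, 21789 probe sets carried 1 symbol, 1621 several and 12146 none, and genes were named only from the first. A gene with several probe sets was represented by that with the highest mean. The 32046 probe sets (of 35556) that reached a linear signal of 50 on 5 arrays or more were compared with lmFit and eBayes of limma 3.58.1, in R 4.3.3, without covariates. Benjamini-Hochberg adjustment ran over all of them, and a gene was called at an adjusted p under 0.05. Intervals are limma's at 95%. Single members were also compared by a two-sided exact permutation test over the 126 splits of the arrays into 5 and 5, where the smallest p possible is 0.00794. The number of arrays limits the precision. The fit was tested on simulated data with independent normal noise for each probe set. These data held no effect of the label prefix, so that test does not bear on it.

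The members and lists were chosen with earlier results of these data known, although the rule for members uses symbols and no measured value. Named in every array were called members, members without overlap and a fixed set of main enzymes, with called genes and the 2 most abundant uncalled genes of each other list. Beyond this, Chac1, Ggt6 and Gss, and the transferases described beside Gsta3, Gstm3 and Gstp1 (Gsto1 on every array), were chosen after their values were seen. Alternatives changed the filter, scaling, test, block, probe sets or arrays used. Single exons were not used here.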

Additional observations from a re-analysis of the deposited data

Results flagged for a closer look

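In 9 of the 126 sets of 5 arrays examined, the highest or lowest array was separated from its nearest neighbour by more than 0.71 of the whole range. The sets were each member and each of the 16 pathway genes that passed the test, by genotype. Pathway genes that did not pass, such as Chac1, were not examined. By chance about 6.3 sets would be, at 1 in 20. In ILK-expressing epidermis, replicate 3 read 12.06 for Gpx1 (others 11.54 to 11.67) and 7.63 for Gstm3 (others 7.11 to 7.21). Replicate 5, the only array of prefix C', read 6.98 for Gsta3 (others 6.52 to 6.59) and 11.48 for Sod1 (others 11.85 to 11.92), and replicate 2 read 5.66 for Gsto2 (others 5.54 to 5.57). In ILK-deficient epidermis, replicate 3 read 5.98 for Gpx7 (others 5.71 to 5.78), 8.72 for Txnrd1 (others 9.24 to 9.38) and 11.62 for Clic4 (others 11.23 to 11.33), and replicate 2 read 5.88 for Gstm6 (others 5.72 to 5.76).

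Probe sets with several symbols lie outside the members, but 4 of them, annotated jointly to Gsta1, Gsta2, Gm10639 and Gm3776, held a difference between the genotypes. Their log2 fold changes were -0.58, -0.60, -0.58 and -0.58 (adjusted p = 0.0149, 0.0210, 0.0207 and 0.0149 from limma), with means of 10.34, 10.18, 9.47 and 9.64 in ILK-deficient and 10.93, 10.78, 10.04 and 10.22 in ILK-expressing epidermis. These genes are close copies, so the 4 probe sets cannot be assigned to a single gene or counted as independent. The 2 probe sets shared by Gstp1 and Gstp2 had log2 fold changes of -0.02 and -0.01 (adjusted p = 0.974 and 0.988).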

How the results depend on the processing

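Of 21 alternative settings, the count of members called lower was 1 in the comparison reported and moved to 2 with a filter at a linear value of 100, with quantile normalization again or with array weights, and to 6 with the mean of all probe sets of a gene (Gpx2, Gsta3, Gstm1, Gsto1, Gclc and Sod2). It was 0 with median centring, with trend and robust eBayes, with the label prefix as a block and within prefix D, and 0 to 2 when each array was left out in turn, with Gclc still called only without ILK-expressing replicate 1 or 2. No member was called higher in any setting. Over all probe sets, 900 were called higher and 311 lower, against 593 higher with median centring, 481 lower with quantile normalization again, 473 lower with the mean of probe sets, 528 and 158 with the methods' analysis of variance and 194 and 103 within prefix D. Leaving out an array gave 439 to 793 higher and 158 to 281 lower. Of the other pathway genes, 10 were higher and 6 lower, against 5 and 3 with the analysis of variance, 5 and 2 within prefix D, and 6 to 10 and 4 to 8 with an array left out.

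Same-numbered arrays of both genotypes correlated in their deviations at -0.30 to 0.11, with 1 of 5 over 0.1, and no ILK-deficient array correlated best with its own number, so the numbers do not pair the arrays. With the replicate block, 477 probe sets were higher and 131 lower, 0 members were called (Gclc at an adjusted p of 0.139), and 6 other pathway genes were higher. No called value changed sign in any setting. Hmox1, Txnrd1, Srxn1, Keap1, Gpx1 and Sod1, none of them called, changed sign in 1 to 8 of the 21 settings. The cause of these shifts was not tested. Gpx3, Gpx5 and Gsto2 did not pass the filter, and signals of Gpx6, Gpx7, Gstt1, Gstt4, Nqo1 and other dim probe sets lay near it. For all of these a difference may not have been detectable, or not in its full size.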
